A study of Mus musculus with 6 samples.

Results

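The 6 genes described here mark oligodendrocyte progenitors, the dividing glial precursors that give rise to the myelinating cells of the brain. They are Olig1, Olig2, Nkx2-2, Pdgfra, Cspg4 and Lhfpl3, and they were taken by gene name from the 54532 genes of the deposited count table. No measured value entered the choice by the rule itself. All 6 were counted in every library and all 6 passed the filter on low counts, so each was compared between Ash2l knockout and wild-type neurospheres.

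Neural progenitors of the embryonic forebrain enter the oligodendrocyte lineage when they express OLIG2, a basic helix-loop-helix factor, together with its relative OLIG1. Committed progenitors carry PDGF receptor alpha (Pdgfra), which binds PDGF-A and drives their division, and the NG2 proteoglycan (Cspg4) on their surface. The homeobox factor NKX2-2 rises as these cells prepare to differentiate. Progenitors grown with bFGF are known to express Olig2 whatever forebrain region they came from, so Olig2 alone does not mark a committed oligodendrocyte progenitor in culture.

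Messenger RNA was sequenced from primary neurospheres, floating colonies of neural progenitor cells, from C57BL/6 mouse embryos at E14.5. The cells had been cultured to day 6 with EGF and bFGF at 20 ng/ml each. There were 3 wild-type libraries (WT 3, WT 6 and WT 7) and 3 libraries from Ash2l conditional knockouts made with D6-Cre (KO 1, KO 2 and KO 3). ASH2L belongs to the core of the COMPASS complexes, which methylate lysine 4 of histone H3, and D6-Cre is a transgene active in the dorsal forebrain, so recombination is expected to be limited to cells of that region. The labels name dorsal cortex as the tissue of origin but describe dissection at the lateral ventricles, and the alleles of the WT embryos beyond the genotype WT are not stated. Whether replicate libraries stem from different embryos is not stated either, and p-values therefore reflect library-to-library spread that could be technical in part.

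Library totals were 16764480 to 21983659 counts over genes, so that 3 reads make 0.137 to 0.179 CPM (reads scaled to library size). On the first principal component, with 69.9% of the variance, the KO libraries lay at 53.5 to 76.8, WT 6 and WT 7 at -81.7 and -85.7, and WT 3 at -25.5, nearest to the KO libraries. Values of single libraries are given below in the order WT 3, WT 6, WT 7 and then KO 1, KO 2, KO 3. Ash2l itself was measured at 116, 114 and 109 CPM in the WT group and at 86.3, 99.3 and 102 CPM in the KO libraries. The groups did not overlap, but the log2 fold change of -0.24 (SE 0.10) did not pass an adjusted p of 0.05 (0.119 in the edgeR quasi-likelihood test, adjusted by Benjamini-Hochberg). Which exons the knockout removes is not given in the labels, and the count covers the whole gene, so these values are a weak check of the genotype.

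Sequence upstream of the start site is shown for the 5 genes with an entry in the RefSeq promoter table, because 3 of them fell in the KO libraries and the others did not pass the test. The lines run 5′ to 3′ on the gene's strand, on build GRCm38.p6, and end at the annotated start site or at the first base of an annotated exon of the gene, whichever came first. Capitals mark CG dinucleotides. Nkx2-2 is shown from chr2:147186456-147186652 (minus strand), Pdgfra from chr5:75152001-75152250, Lhfpl3 from chr5:22745804-22746053, Olig2 from chr16:91225300-91225456 and Cspg4 from chr9:56864854-56865032 (all plus strand). The Nkx2-2 start in RefSeq lies inside the longer span that the deposited table gives the gene. Its printed stretch ends in a run of c and t bases and then ag, directly before an annotated exon, as an intron does. It may thus be intron of a longer transcript, and the counts below describe this window rather than a known promoter.
Nkx2-2: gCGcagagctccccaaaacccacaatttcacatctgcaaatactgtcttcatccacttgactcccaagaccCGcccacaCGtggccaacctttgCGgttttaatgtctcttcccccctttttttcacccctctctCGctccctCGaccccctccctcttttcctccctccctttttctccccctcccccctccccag
Pdgfra: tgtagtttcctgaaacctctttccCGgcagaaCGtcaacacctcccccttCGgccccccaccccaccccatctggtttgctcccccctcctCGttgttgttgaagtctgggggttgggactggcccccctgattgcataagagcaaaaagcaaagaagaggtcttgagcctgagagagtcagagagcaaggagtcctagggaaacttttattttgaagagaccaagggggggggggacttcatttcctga
Lhfpl3: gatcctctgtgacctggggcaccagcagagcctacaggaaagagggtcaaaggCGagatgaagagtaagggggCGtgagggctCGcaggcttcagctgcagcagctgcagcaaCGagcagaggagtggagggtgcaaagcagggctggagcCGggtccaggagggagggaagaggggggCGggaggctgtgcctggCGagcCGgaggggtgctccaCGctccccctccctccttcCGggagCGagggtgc
Olig2: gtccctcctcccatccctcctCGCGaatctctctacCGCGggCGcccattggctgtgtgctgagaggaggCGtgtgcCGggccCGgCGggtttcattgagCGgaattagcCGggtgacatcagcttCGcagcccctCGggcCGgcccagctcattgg
Cspg4: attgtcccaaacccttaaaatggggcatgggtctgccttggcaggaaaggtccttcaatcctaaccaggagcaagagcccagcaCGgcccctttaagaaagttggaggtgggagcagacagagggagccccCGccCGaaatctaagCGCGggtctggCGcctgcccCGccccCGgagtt
In the full window of 300 bases, 250 of them upstream of the start, Olig2 held 25 CG dinucleotides, more than or as many as 83.1% of the 32841 promoters of that length. Nkx2-2 and Cspg4 held 17 each (70.3%), Lhfpl3 held 12 (62.1%) and Pdgfra held 5 (43.6%), where the median promoter held 7. Among the 3 genes that fell, the Pdgfra window thus lay below the median and those of Lhfpl3 and Nkx2-2 above it. The E-box CANNTG, the core bound by basic helix-loop-helix factors such as OLIG2, was found 3 times at Nkx2-2 and 2 times each at Pdgfra and Lhfpl3, and not at Olig2 or Cspg4. It is a common word, present in 72.3% of all promoters. The TCF/LEF core CTTTGAT was in none of the 5 windows and in 3.73% of all promoters, and the SOX core AACAAT was at Olig2 once and in 10.7% of all promoters. The TATA word TATAAA was likewise at Olig2 once and in 13.6% of all promoters. Both strands were searched, and these words are a description of the sequence only. The Lhfpl3 window also overlaps an exon of A930003O13Rik, a long noncoding RNA on the other strand.

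The members split into those that fell and those that did not. Nkx2-2, Pdgfra and Lhfpl3 were lower in the KO libraries, each at 26.0% to 29.2% of its WT mean, while Olig1, Olig2 and Cspg4 did not pass the test. That is 3 of 6 lower, against 15.5% of all 16606 tested genes, and 0 of 6 higher, against 13.5% of all. For 3 of 6 members every KO library lay below every WT library, against 25.2% of all tested genes, and for 0 of 6 every KO library lay above, against 23.5%. The count of 0 higher was also 0 at an unadjusted p under 0.05, with DESeq2 and with limma-voom. The median log2 fold change of the 6 was -0.94, where that of all tested genes was 0.0019. In whole neurospheres a lower level can come from fewer cells of a type or from less RNA per cell, and these cannot be told apart.

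Olig2 (ENSMUSG00000039830, chromosome 16 from 91225457 to 91228677 on mm10, plus strand) was abundant in every library. It stood at 510, 655 and 599 CPM in the WT group and at 416, 737 and 583 CPM in the KO libraries. The KO libraries held both the lowest and the highest value, so the groups overlapped fully. The log2 fold change was -0.02 (SE 0.22, 95% interval -0.55 to 0.50, adjusted p = 0.942, edgeR quasi-likelihood test with Benjamini-Hochberg adjustment). The interval, from 3 libraries a group, holds changes in either direction. The sign of the estimate turned in several alternatives, among them library totals (0.036) and the fit without KO 1 (0.19).

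Olig1 (ENSMUSG00000046160, chromosome 16 from 91269772 to 91271933, plus strand) is the neighbouring gene and encodes a factor of the same family that acts in oligodendrocyte maturation. Its level was 736, 1037 and 948 CPM in the WT libraries and 578, 1148 and 791 CPM in the KO libraries. As for Olig2, KO 1 was the lowest and KO 2 the highest library of all 6. The log2 fold change was -0.11 (SE 0.27, 95% interval -0.74 to 0.52), with an adjusted p of 0.766 in the edgeR test, and it was 0.13 without KO 1.

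Nkx2-2 (ENSMUSG00000027434, chromosome 2 from 147177546 to 147194243, minus strand) was measured at 72.9, 37.1 and 28.8 CPM in the WT libraries. The KO libraries held 7.90, 17.9 and 14.8 CPM in the KO libraries. No KO library reached the lowest WT value, but the WT libraries were themselves spread, WT 3 being the highest by far. Nkx2-2 fell by 1.77 on the log2 scale (SE 0.43, 95% interval -2.78 to -0.76), with an adjusted p of 0.0228 in the edgeR test. The call ended without KO 1, KO 2 or KO 3, at adjusted p of 0.0665, 0.0502 and 0.0576 (edgeR).

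Pdgfra (ENSMUSG00000029231, chromosome 5 from 75152292 to 75198215, plus strand) had the narrowest spread of the genes that fell. It was read at 202, 246 and 204 CPM in the WT group and at 45.5, 47.9 and 78.0 CPM in the KO libraries. The highest KO library, KO 3, was well below the lowest WT library. Pdgfra fell by 1.93 on the log2 scale (SE 0.23, 95% interval -2.46 to -1.39, adjusted p = 0.00248, edgeR), to 26.3% of its WT mean. It passed in 14 of 14 alternative analyses, with a highest adjusted p of 0.0158 across edgeR, DESeq2 and limma.

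Lhfpl3 (ENSMUSG00000106379, chromosome 5 from 22746059 to 23275597, plus strand) encodes a membrane protein of the tetraspan LHFPL family and is used as a transcript marker of oligodendrocyte progenitors. Its level was 110, 159 and 110 CPM in the WT libraries and 16.7, 52.0 and 30.3 CPM in the KO libraries. The groups did not overlap, and the KO libraries differed among themselves by 3.11-fold. Lhfpl3 fell by 1.94 on the log2 scale (SE 0.39, 95% interval -2.87 to -1.01, adjusted p = 0.0128, edgeR). It too passed in 14 of 14 alternative analyses, with a highest adjusted p of 0.0472 across these tools.

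Cspg4 (ENSMUSG00000032911, chromosome 9 from 56865033 to 56899870, plus strand), which encodes NG2, did not fall with Pdgfra, the other surface marker of the progenitors. It was measured at 95.2, 66.0 and 55.3 CPM in the WT group and at 47.6, 119 and 141 CPM in the KO libraries. KO 1 lay below every WT library while KO 2 and KO 3 lay above them all. The log2 fold change was 0.51 (SE 0.40, 95% interval -0.43 to 1.45, adjusted p = 0.351, edgeR). Without KO 1 it was 0.88, with an adjusted p of 0.0575 in the edgeR test. NG2 is also made by pericytes, and markers of these cells are given after the lineage lists.

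**Figure D1:**
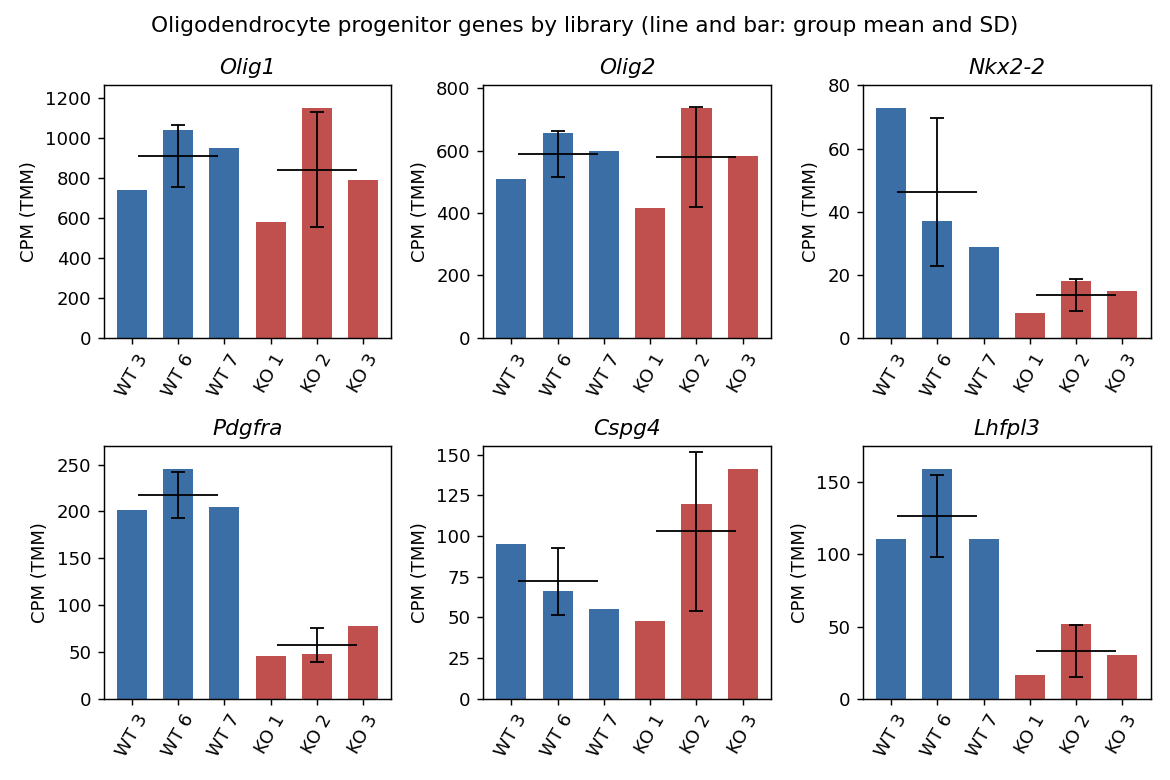
Level of each of the 6 genes in each library, in TMM-normalised CPM, with WT libraries in blue and KO libraries in red. The horizontal line and bar give the mean and SD of the 3 libraries of a group. Nkx2-2, Pdgfra and Lhfpl3 lie lower in every KO library than in any WT library, and the groups overlap for Olig1, Olig2 and Cspg4.

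The libraries of the KO group differed in a shared way. KO 1 was the lowest KO library for 6 of 6 members, and the highest was KO 2 for 4 members and KO 3 for 2. The highest KO value was 1.98 times the lowest for Olig1, 1.77 times for Olig2 and 2.97 times for Cspg4, against 1.41, 1.28 and 1.72 times among the WT libraries. WT 6 was the highest WT library for 4 of 6 members, and WT 3 for Nkx2-2 and Cspg4.

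Levels can be compared between genes only per length, in FPKM. In WT the order was Olig1 (409 ± 58.6 FPKM, SD, n = 3), Olig2 (227 ± 21.9), Lhfpl3 (38.5 ± 7.94), Pdgfra (21.2 ± 2.07), Nkx2-2 (15.9 ± 8.60) and Cspg4 (5.95 ± 1.91). Pdgfra and Nkx2-2 overlapped across the WT libraries, and the other neighbours in this order did not. In KO the means were 395 ± 134 FPKM for Olig1 and 233 ± 63.0 for Olig2, followed by Lhfpl3 (10.5 ± 5.60), Cspg4 (8.74 ± 4.09), Pdgfra (5.80 ± 1.76) and Nkx2-2 (4.78 ± 1.78). The last 4 overlapped with their neighbours, so their order in KO is not settled. Cspg4 was the lowest of the 6 in WT and stood second to Lhfpl3 among those 4 by mean in KO.

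To compare the members within a library, each was expressed as a percent of the Olig2 FPKM of the same library, a measure in which library scaling cancels. Olig1 stood at 169%, 185% and 185% of Olig2 in the WT libraries and at 163%, 182% and 159% in the KO libraries. Pdgfra stood at 9.98%, 9.46% and 8.61% in the WT group and at 2.76%, 1.64% and 3.38% in the KO libraries. Per unit of Olig2, then, Pdgfra was lower in every KO library, and the difference of -1.91 in mean log2 ratio was close to that of its level. Lhfpl3 was likewise lower in every KO library, at 17.0%, 19.2% and 14.51% in WT and 3.17%, 5.56% and 4.10% in KO, a log2 difference of -2.01. Nkx2-2 stood at 12.6%, 4.98% and 4.23% in WT and 1.67%, 2.14% and 2.23% in KO, so that the KO libraries, which differed in Nkx2-2 level, were close together in this ratio. Cspg4 overlapped between groups, at 3.95%, 2.14% and 1.96% in WT and 2.43%, 3.44% and 5.14% in KO. In two-sided exact permutation tests of these 5 ratios (n = 3 per group), Nkx2-2, Pdgfra and Lhfpl3 each reached p = 0.1, the smallest this design allows, with an adjusted p of 0.167. Olig1 gave an exact permutation p of 0.2 (adjusted 0.25) and Cspg4 one of 0.4 (adjusted 0.4).

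**Figure D2:**
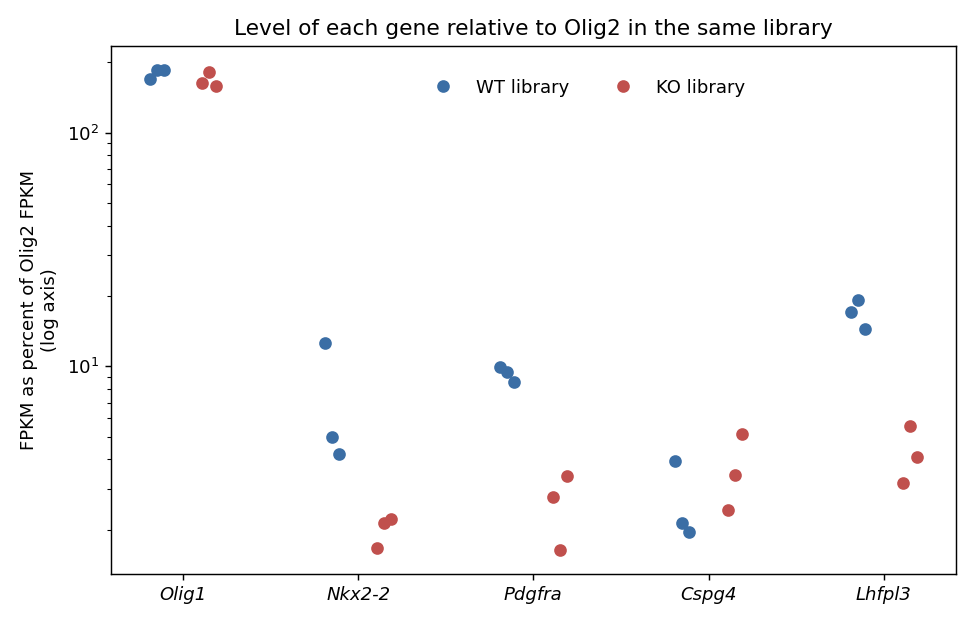
FPKM of 5 members as a percent of the Olig2 FPKM of the same library, on a log axis, with each point a library (WT blue, KO red, in the order WT 3, WT 6, WT 7 and KO 1, KO 2, KO 3 from left to right). The KO points of Nkx2-2, Pdgfra and Lhfpl3 lie below all WT points, and those of Olig1 and Cspg4 overlap the WT points.

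The PDGF family supplies the mitogen that PDGF receptor alpha binds. Of its 7 genes 3, the member Pdgfra among them, were lower in KO and 0 higher in the edgeR test. Of all tested genes 15.5% were lower and 13.5% higher. In the family 1 gene was higher at an unadjusted p under 0.05, by DESeq2 and by limma-voom. Pdgfa, a ligand of this receptor, was read at 28.9, 28.2 and 27.8 CPM in the WT group and at 17.2, 17.4 and 16.2 CPM in the KO libraries. The values hardly varied within a group, and Pdgfa fell by 0.74 on the log2 scale (SE 0.12, adjusted p = 0.00659, edgeR). Its span overlaps the antisense gene 6330403L08Rik, whose mean count is 41.0% of its own, and the use of strand in counting is not stated, so some of these reads may be shared. Pdgfa and Pdgfra were thus both lower, while the other ligand genes, Pdgfb, Pdgfc and Pdgfd, were not. Pdgfrl, a receptor-like gene, fell by 1.20 (SE 0.33, adjusted p = 0.0359, edgeR), a call that ended without WT 6, WT 7, KO 1 or KO 2. Pdgfb, the higher gene by the other tools, was at 1.12, 0.251 and 0.0947 CPM in WT and 4.32, 2.05 and 1.37 CPM in KO, with an adjusted p of 0.0673 in the edgeR test and of 0.00686 without WT 3. Pdgfc, Pdgfd and Pdgfrb had log2 fold changes of 0.52, 0.78 and 0.91 and did not pass. The sign turned without KO 2 for Pdgfd (-0.39) and without KO 1 for Pdgfrb (-0.77, against 1.68 without WT 3), the pericyte receptor, which stood at 26.0 CPM in KO 1 and 3.35 and 3.36 CPM in KO 2 and KO 3.

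Other genes enriched in oligodendrocyte progenitors moved more often down than up. Of 20 such genes 19 were tested, 11 were lower and 3 higher, and their median log2 fold change was -1.16. The count of lower genes was 6 without KO 2 and 7 without WT 6. Bcan, the brain proteoglycan brevican, fell from 1819, 2120 and 1829 CPM in the WT libraries to 489, 749 and 629 CPM in the KO libraries (log2 fold change -1.63, SE 0.19, adjusted p = 0.00255, edgeR). C1ql1, a secreted C1q-like protein, and Tmem100 had log2 fold changes of -2.66 (SE 0.23) and -2.64 (SE 0.37), each below all WT libraries in every KO library. Sox10, the factor that maintains the lineage, was named after its values were seen. It stood at 475, 186 and 185 CPM in WT and 8.19, 22.5 and 87.5 CPM in KO, and its call (log2 fold change -2.84, SE 0.85, adjusted p = 0.0456, edgeR) held without KO 3, where the value was -4.17, and ended when any other library was left out (-2.23 without WT 3). The higher genes, also named after their values were seen, were Chst11 and Xylt1, enzymes of glycosaminoglycan chain synthesis, and Emid1. Their log2 fold changes were 0.87 (SE 0.13), 0.78 (SE 0.19) and 1.57 (SE 0.32), and that of Chst11 alone of these passed whichever library was left out. Emid1 lost its call without WT 6 or KO 2, and Xylt1 without WT 6, KO 2 or KO 3.

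**Figure D3:**
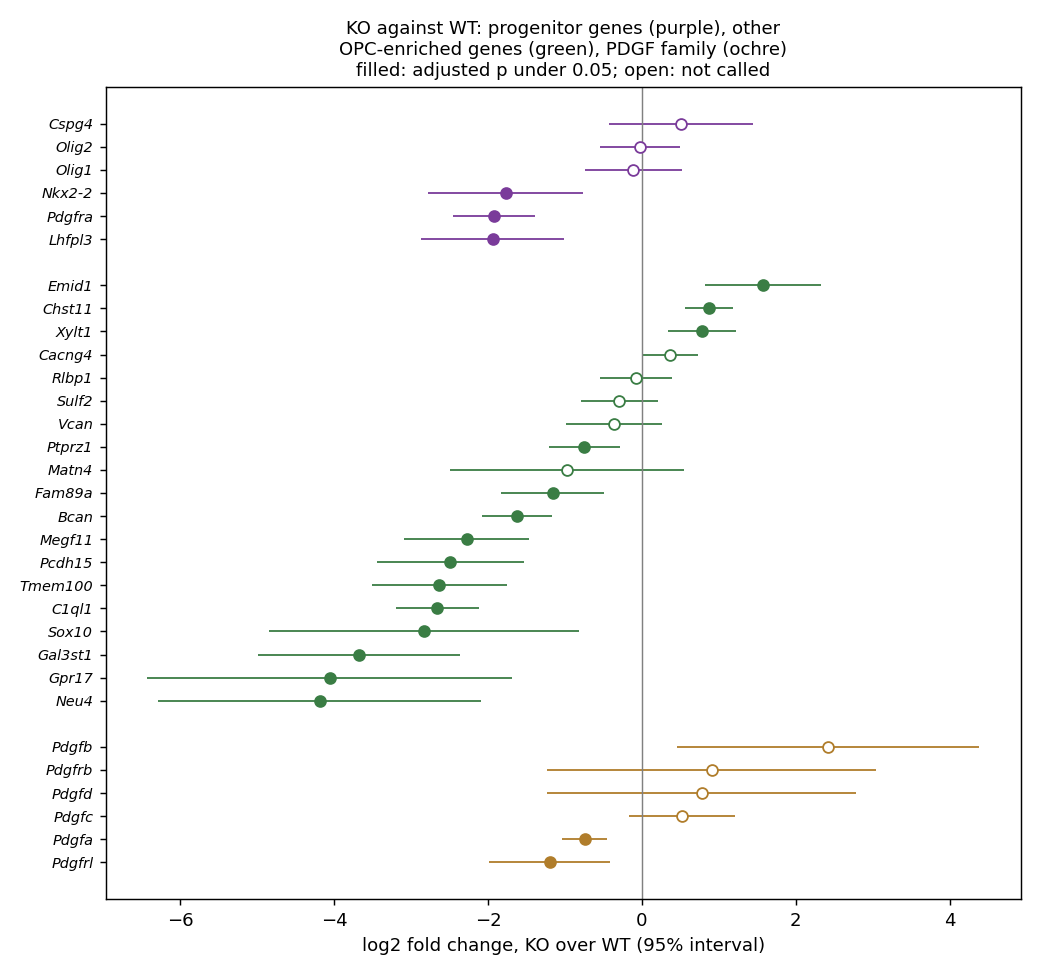
Log2 fold change of KO over WT with its 95% interval for the 6 members (purple), 19 other progenitor-enriched genes (green) and the 6 remaining genes of the PDGF family (ochre). Filled points passed an adjusted p of 0.05 and open points did not. Members and other progenitor genes lie on either side of 0, with more of the filled points to its left.

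Of 16 transcription factors listed for specification of the lineage, 14 were tested, 9 were lower and 2 higher. Their median log2 fold change was -1.58. The list is mixed and includes factors that restrain progenitors, such as Sox6. Its counts are therefore not counts of factors that promote the lineage. Sox10 is counted here and among the progenitor-enriched genes. The count of lower factors was 4 without WT 7 and 5 without WT 6 or KO 1. Sox6, which restrains the maturation of progenitors, fell from 238, 287 and 254 CPM in WT to 58.9, 94.0 and 78.0 CPM in KO, a log2 fold change of -1.75 (SE 0.18, adjusted p = 0.00185, edgeR). Hey1, a Notch target, had a log2 fold change of -1.76 (SE 0.24). Zfp488, a nuclear factor that works with OLIG2, fell from 59.2, 55.9 and 52.6 CPM to 1.33, 4.27 and 7.85 CPM (log2 fold change -3.63, SE 0.54), and the value was -4.29 without KO 3. Nfib, a gliogenic factor named after its values were seen, was among the higher factors (log2 fold change 0.49, SE 0.13), and among the fits without a single library it kept its call only without WT 3 or KO 3.

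Later steps of the lineage were lower as well. Of 12 genes of differentiating oligodendrocytes, all tested, 10 were lower and 0 higher in the edgeR test (0 higher at an unadjusted p under 0.05 and with DESeq2, and 1 with limma-voom), with a median of -1.98. The log2 fold change was -2.13 (SE 0.17) for Tns3, -1.82 (SE 0.18) for Tcf7l2, a TCF family factor needed for differentiation, and -2.82 (SE 0.31) for the deacetylase Sirt2. Of 15 myelin genes 14 were tested, 9 were lower and 1 higher, with a median of -3.35. Cnp, Cldn11 and Ugt8a, genes of the myelin sheath and its lipids, had log2 fold changes of -3.42 (SE 0.36), -3.98 (SE 0.41) and -3.28 (SE 0.36), and the higher gene was Ermn, at no more than 0.284 CPM in WT and 0.709 to 2.08 CPM in KO, named after its values were seen. The call of Ermn ended without WT 6. Cnp overlaps Dnajc7, whose mean count is 43.0% of its own. The medians of the progenitor, differentiating and myelin lists were -0.94, -1.98 and -3.35, a description of these lists and not a test of their difference. The first lies between Olig1 (-0.11) and Nkx2-2 (-1.77) and is the value of no member. The members that fell stood at -1.77 to -1.94, near the median of the differentiating list. Astrocyte markers had a median of -2.535, so a low median was not particular to this lineage.

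Genes listed as inhibitors of differentiation gave a mixed result, with 2 of 9 tested genes lower, 0 higher and a median of -0.42. The count of 0 higher was also 0 at an unadjusted p under 0.05, with DESeq2 and with limma-voom. Hes5, a Notch effector, had a log2 fold change of -2.97 (SE 0.38) and Id4, which holds back differentiation, one of -2.24 (SE 0.30). Tcf4 missed the threshold at -0.37 (adjusted p = 0.085, edgeR). It encodes a basic helix-loop-helix factor, is a different gene from Tcf7l2, and should not be read as an inhibitor from its place on this list. In the Lhfpl family Lhfpl3 was the gene called among 5 tested of 6, and the median of the family was -0.06. In the NK2 and NK6 homeobox family 2 of 10 genes were tested and both were lower, namely Nkx2-2 and Nkx6-2 (log2 fold change -2.64, SE 0.62). Nkx6-2, a homeobox gene of oligodendrocytes, lost its call without WT 7, KO 1 or KO 3, stood at -3.55 without KO 2, and its span overlaps Inpp5a, whose mean count is several times its own.

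Markers of other cells moved with these results, and their part in them was not tested. The 12 astrocyte markers were all tested, with 8 lower and 0 higher (0 at an unadjusted p under 0.05, with DESeq2 and with limma-voom) and a summed level of 4097 to 11530 CPM in WT and 1798 to 2510 CPM in KO. Agt, angiotensinogen, and Gja1, a gap junction protein, had log2 fold changes of -6.27 (SE 0.33) and -2.41 (SE 0.29). Of 10 neuron markers 2 were higher, Gap43 at 1.67 (SE 0.44) and Syp at 1.25 (SE 0.37). Both calls ended when any library other than WT 3 was left out, and without WT 3 there were 7 higher markers and Gap43 stood at 2.38. All 12 genes of the G2 and M phases of the cell cycle were higher, with a summed level of 100.5 to 322 CPM in WT and 1666 to 2177 CPM in KO, and Birc5, Foxm1 and Cdk1 rose by 2.99 (SE 0.25), 3.04 (SE 0.29) and 3.34 (SE 0.34). As a group, the KO libraries thus had fewer Pdgfra, Nkx2-2 and Lhfpl3 transcripts and more transcripts of dividing cells, and a link between these was not tested. Among the WT libraries, WT 3 had the highest sum of G2 and M genes (322 CPM) and the highest Nkx2-2 (72.9 CPM). Pdgfra in WT 3 (202 CPM) was the lowest by rank but close to that in WT 7 (204 CPM).

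Markers of other cells that make NG2 or PDGF receptors were also read in each library. The 12 pericyte and mural markers summed to 121 to 149 CPM in WT and to 109, 60.1 and 113 CPM in KO, of which Notch3, also a gene of neural progenitors, made up 113 to 131 CPM in WT and 46.1 to 86.4 CPM in KO. Without Notch3 the other 11 markers summed to 24.0, 8.18 and 6.72 CPM in WT and to 49.8, 14.1 and 27.1 CPM in KO. By this sum KO 1 and KO 3 lay above every WT library, but single genes made up much of it. Pdgfrb held 26.0 CPM in KO 1 and 10.7 CPM in WT 3. Ndufa4l2, named after its values were seen, held 18.1 CPM in KO 3 and 10.8 CPM in WT 3. Of 7 tested markers 2 were higher and 1 lower, with a median log2 fold change of 1.68. Acta2, smooth muscle actin, rose by 3.29 (SE 0.46, adjusted p = 0.00385, edgeR) from at most 0.112 CPM in WT to 0.702 to 1.33 CPM in KO. Anpep rose by 3.58 (SE 1.05, adjusted p = 0.0426, edgeR) to 5.13, 0.648 and 0.615 CPM in KO, a call that ended without WT 6, WT 7 or KO 1 and a value that was 1.87 without KO 1. Notch3 fell by 0.95 on the log2 scale (SE 0.22), a call that ended without WT 6, WT 7, KO 1 or KO 2. Kcnj8, Abcc9 and Higd1b, named after their values were seen, were at 0 in at least 1 library. The part of these cells in the Cspg4 values was not tested. The 8 fibroblast and meningeal markers, whose cells express Pdgfra, summed to 27.8 to 49.6 CPM in WT and to 736 CPM in KO 1, 43.7 in KO 2 and 88.1 in KO 3. Pdgfra stood at 45.5 CPM in KO 1, 47.9 CPM in KO 2 and 78.0 CPM in KO 3, and the part of fibroblasts in these values was not tested. Lum, a matrix proteoglycan, was the marker called higher among 7 tested, at 0.402 to 0.505 CPM in WT and 22.8, 1.46 and 1.47 CPM in KO. Its log2 fold change was 4.25 (SE 1.23), or 1.74 without KO 1, and the call ended without WT 3, WT 6 or WT 7 and with limma. The 8 endothelial markers summed to 5.26 to 7.48 CPM in WT and 3.45 to 6.63 CPM in KO, with Kdr, a VEGF receptor, lower by 2.08 (SE 0.35) among 3 tested. The 10 microglia markers summed to 2.64 to 10.5 CPM in WT and to 28.2 CPM in KO 1, against 5.78 and 5.58 CPM in KO 2 and KO 3. Without KO 1, Pdgfra fell by 1.76 and Lhfpl3 by 1.59 on the log2 scale, and both passed (adjusted p = 0.0107 and 0.0233, edgeR). Nkx2-2 lost its call in that fit.

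**Figure D4:**
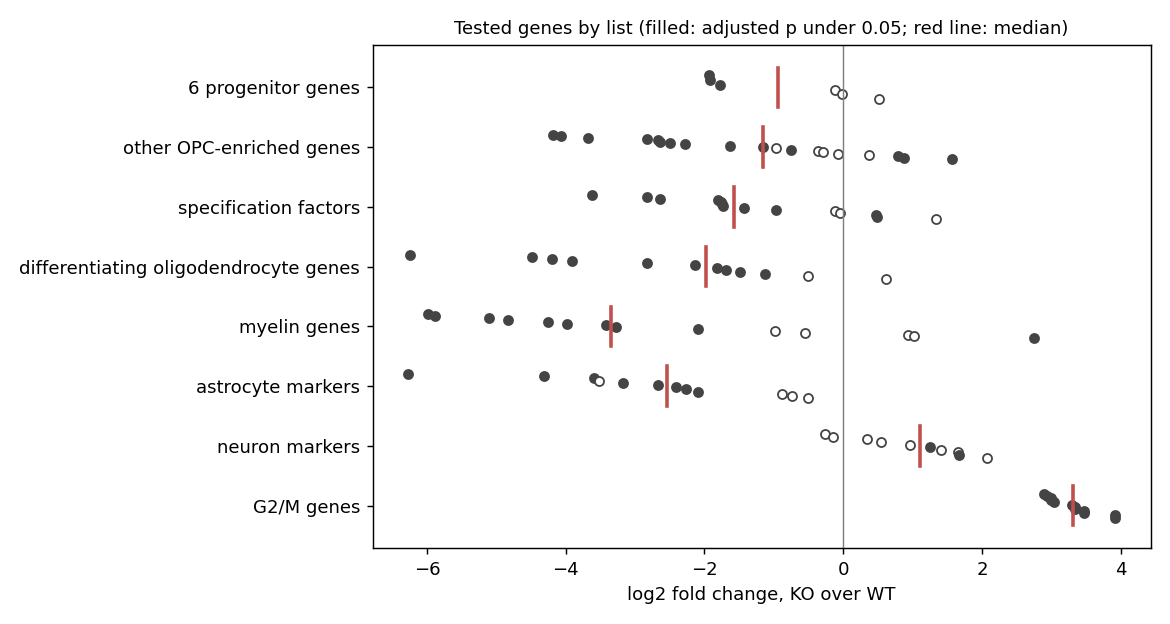
Log2 fold change of KO over WT for every tested gene of 8 gene lists, each point a gene, filled where the adjusted p was under 0.05 and open where it was not, with the median of each list as a red line. The median is -0.94 for the 6 progenitor genes, -3.35 for myelin genes, -2.535 for astrocyte markers and 3.31 for the G2/M genes.

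Genes whose pattern over the 6 libraries came closest to a member were found by the root mean square difference of centred log2 CPM. For Pdgfra the nearest was 2310022B05Rik (0.0726), at 283, 338 and 324 CPM in the WT libraries and 65.8, 72.0 and 120 CPM in the KO libraries, followed by Ctsf (0.142) and Rhbdl3 (0.145). These share with Pdgfra the KO 3 library as the highest of its group. For Olig1 the nearest were Cap2 (0.107), Fabp7 (0.112), a lipid-binding protein of radial glia, and Fam241a (0.124). Here KO 1 and KO 2 again bounded the group, since Fabp7 stood at 1414, 1923 and 1680 CPM in WT and 1225, 2260 and 1312 CPM in KO. For Olig2 the nearest were C1qtnf6 (0.0974), Gm12251 (0.102) and Slirp (0.104). The span of Slirp overlaps Snw1 and Alkbh1, whose mean counts are 1412% and 858% of its own, so some of its reads may be shared. Each of these nearest genes was picked from the whole table over only 6 libraries, and the likeness is a description.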

How the data were processed

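RNA was sequenced from 3 WT and 3 KO neurosphere libraries. Per the submitters' processing notes, the tools were HISAT2 2.0.5 and featureCounts 1.5.0-p3, with DESeq2 1.16.1, on mm10. The sources used here do not give their settings, the annotation or the use of strand. The deposited table holds whole-number read counts per gene, not normalised, per the file headers. It also holds FPKM values computed by the authors, whose headers carry the word count and whose unit was taken from the values. Counts implied by FPKM matched the counts within 0.05 reads in all but 4 of 327192 values. Neurog2 was the gene of the lists below with a value that did not match.

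Counts were tested with the edgeR 4.0.16 quasi-likelihood F test in R 4.3.3 over all 6 libraries (TMM, filterByExpr, 16606 genes tested, two-sided, Benjamini-Hochberg, threshold 0.05, biological coefficient of variation 26.5%). CPM values are TMM-normalised. Log2 CPM for likeness and principal components had a prior count of 2. Every pair of libraries differed beyond sampling noise, with chi-square over degrees of freedom from 17.8 up.

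The members and the gene lists were chosen with earlier results of these data known, so list counts are descriptions. Named genes are the members, Ash2l, the 3 genes with the lowest p of each list, all PDGF genes and the 3 genes most like Olig1, Olig2 and Pdgfra, and others are said to be named after their values were seen. The ratios to Olig2 and their values without each library were added after seeing the data. Alternatives were RLE factors, library totals, no expression filter, 1 CPM in 3 libraries, DESeq2 1.42.0, limma-voom with quality weights and limma 3.58.1 on FPKM, as log2(FPKM + 1) or with 0.1 added instead, where the mean FPKM reached 0.5, and leaving out each library. Promoters come from the RefSeq table, with 5 of 6 members matched. A gene of the lists is not reported here, and counts over lists include it.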

Additional observations from a re-analysis of the deposited data

How the results depend on the processing

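The 3 libraries per group and the spread among the KO libraries limited what could be seen, and the 95% intervals of Olig1, Olig2 and Cspg4 span changes in either direction. The calls of Pdgfra and Lhfpl3 held in 14 of 14 alternatives, that of Nkx2-2 in 11 of 14, and Olig1, Olig2 and Cspg4 passed in 0 of 14. Nkx2-2 lost its call without KO 1, KO 2 or KO 3, and its log2 fold change ranged from -2.03 to -1.28 over single libraries left out. The members called lower were then 2 to 3. The sign of Olig2 turned with library totals only (0.036), on log2(FPKM + 1) (0.0041) and on log2(FPKM + 0.1) (0.0039), and its range over libraries left out was -0.23 to 0.19. Olig1 ranged from -0.40 to 0.13 in the same way. Pdgfd ranged from -0.39 (without KO 2) to 1.35 and Pdgfrb from -0.77 (without KO 1) to 1.68. The number of all genes called, 4812, was 8052 with limma-voom and 2178 (without WT 6) to 6641 (without WT 3) over libraries left out. The other progenitor-enriched genes called lower, 11, were 6 (without KO 2) to 11. For these moves the cause was not tested, apart from the fewer libraries in each such fit. No paired analysis was possible because the groups share only 1 replicate number.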

Other observations

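Regional genes of the forebrain gave no common direction. Of 10 dorsal markers 9 were tested and 2 were lower, Pax6, a factor of cortical progenitors, by 1.24 on the log2 scale (SE 0.10) and Eomes, a marker of intermediate progenitors, by 2.55 (SE 0.57), while the median was 0.02. Pax6 stood at 90.3, 92.7 and 98.6 CPM in the WT libraries and at 36.7, 42.9 and 39.4 CPM in the KO libraries. The call of Eomes ended without KO 1 or KO 2, and its value was -1.93 without WT 3. In the edgeR test 0 dorsal markers were higher, with 1 at an unadjusted p under 0.05, 1 by DESeq2, and 3 by limma-voom and without WT 3. Tbr1 and Neurod6, genes of young cortical neurons named after their values were seen, were higher in every KO library than in any WT library but missed the threshold. Tbr1 stood at 22.9, 1.41 and 2.13 CPM in the WT libraries and 128, 66.0 and 32.8 CPM in the KO libraries (log2 fold change 3.11, SE 1.07, adjusted p = 0.0677, edgeR), and Neurod6 at 96.9, 11.1 and 9.56 CPM in WT and 211, 138 and 142 CPM in KO (2.06, SE 0.87, adjusted p = 0.115, edgeR). Without WT 3 these were 5.41 and 3.98, and both passed. Of 12 ventral markers 9 were tested, with Gsx2, a factor of the ventral progenitor zone, lower by 1.81 (SE 0.55) and a median of 0.07, and the call of Gsx2 ended without any single library, with library totals only and on both FPKM scales.

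In the Hedgehog pathway, which induces Olig2 and Nkx2-2 in ventral progenitors, 10 of 12 genes were tested and the median log2 fold change was -0.06. Ptch1, its receptor and a target gene, was at 110, 242 and 240 CPM in the WT libraries and at 60.9, 89.8 and 64.3 CPM in the KO libraries. It fell by 1.46 (SE 0.32, adjusted p = 0.0165, edgeR quasi-likelihood test), a call that ended without WT 6, WT 7, KO 1 or KO 3. Cdon, a coreceptor, rose by 0.73 (SE 0.15, adjusted p = 0.0138, edgeR), a call that ended without WT 6, WT 7 or KO 2.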
